A study of Mus musculus with 4 samples.

Results

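The genes described here encode the oxidative phosphorylation machinery of the inner mitochondrial membrane, in both of the genomes that contribute to it. They were taken as all genes listed on the mitochondrial chromosome, plus the nuclear genes whose symbols start with Nduf, Uqcr, Cox4, Cox5, Cox6, Cox7, Cox8 or Atp5, plus Sdha to Sdhd, Cyc1 and Cycs. This gave 108 of the 22913 genes listed, of which 13 are encoded in the mitochondrial genome and 95 in the nucleus, on 19 chromosomes. The rule itself uses symbols and the chromosome, not a measured value. All 13 mitochondrially encoded genes and 93 of the 95 nuclear genes reached 1 FPKM (fragments per kilobase of gene length, on the scale the authors deposited) in at least 1 library. The remaining pair, Cox7b2 and Cox8c, were listed at 0 in all 4 libraries.

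The series profiled dermal white adipose tissue (dWAT), the fat layer around the lower ends of the hair follicles (HFs), in C57BL/6 mice to ask how it differs with age and with the hair cycle. OTD was dWAT of old mice (18 months) in telogen, the resting phase, and YTD was dWAT of young mice (2 months) in telogen. OAD and YAD were dWAT of old and young mice in anagen, the growth phase, which was induced in both by depilation. There was 1 library per group, so the spread between replicates is unknown, no test was made and every difference below sets a single library against another. The study's methods name many mice per group but not how their tissue went into a library. The age field of the labels gives 18 months for YTD and 2 months for OAD, against the titles, and the ages of the titles were used. The tissue was microdissected and, by the methods given, the subcutaneous fat and the panniculus carnosus, the thin muscle sheet of mouse skin, were taken away first.

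Between 16538 and 17089 genes were above 0 in a library, and the total read number is not given in the sources used here. Markers of several tissues were present, and their part in the values below was not tested. All 15 adipocyte markers were detected in every library, with a summed level of 13642 FPKM in OTD and 12778 in YTD, against 3814 in OAD and 2778 in YAD. Of 20 skeletal muscle markers 19 passed the filter, and their sum, over all 20, was 78571 FPKM in OTD and 124362 in YTD, against 18031 in OAD and 13828 in YAD. Hair shaft keratins and their regulators summed to 34.8 and 104 FPKM in OTD and YTD and to 11418 and 11871 in OAD and YAD. In such bulk tissue, fewer cells of a type and less RNA per cell cannot be told apart.

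Oxidative phosphorylation passes electrons from NADH through complex I, or from succinate through complex II, to ubiquinone, then through complex III and cytochrome c to complex IV, where oxygen is reduced to water. Complexes I, III and IV pump protons, and complex V, the ATP synthase, uses the gradient to make ATP. Complexes I, III, IV and V are each assembled from subunits of both genomes, while complex II is encoded in the nucleus alone. Oxidative muscle fibres, heart and brown fat are rich in these complexes, whereas white adipocytes have few mitochondria for their size.

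In each of the 4 libraries the mitochondrially encoded genes stood far above the nuclear ones, and the gap differed by library. Of all FPKM, the 13 mitochondrially encoded genes made up 52.8% in OTD and 44.8% in YTD but 18.4% in OAD and 14.5% in YAD, summed over the 14203 genes that passed the filter. The nuclear members held 3.25% in OTD and 4.45% in YTD, against 2.70% in OAD and 2.85% in YAD. The ratio of the mitochondrial to the nuclear sum was therefore 16.3 in OTD and 10.05 in YTD, against 6.80 in OAD and 5.08 in YAD, and it does not depend on how the libraries were scaled to each other. It was higher in the old than in the young library within each phase, and higher in telogen than in anagen within each age. Leaving the mitochondrial genes out of the total, the nuclear members held 6.87% of the remaining FPKM in OTD and 8.06% in YTD, against 3.30% in OAD and 3.33% in YAD, so that both telogen libraries lay above both anagen libraries. As a share of fragments rather than of FPKM, the mitochondrial genes held 43.2%, 34.2%, 14.6% and 10.8% in OTD, YTD, OAD and YAD.

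**Figure D1:**
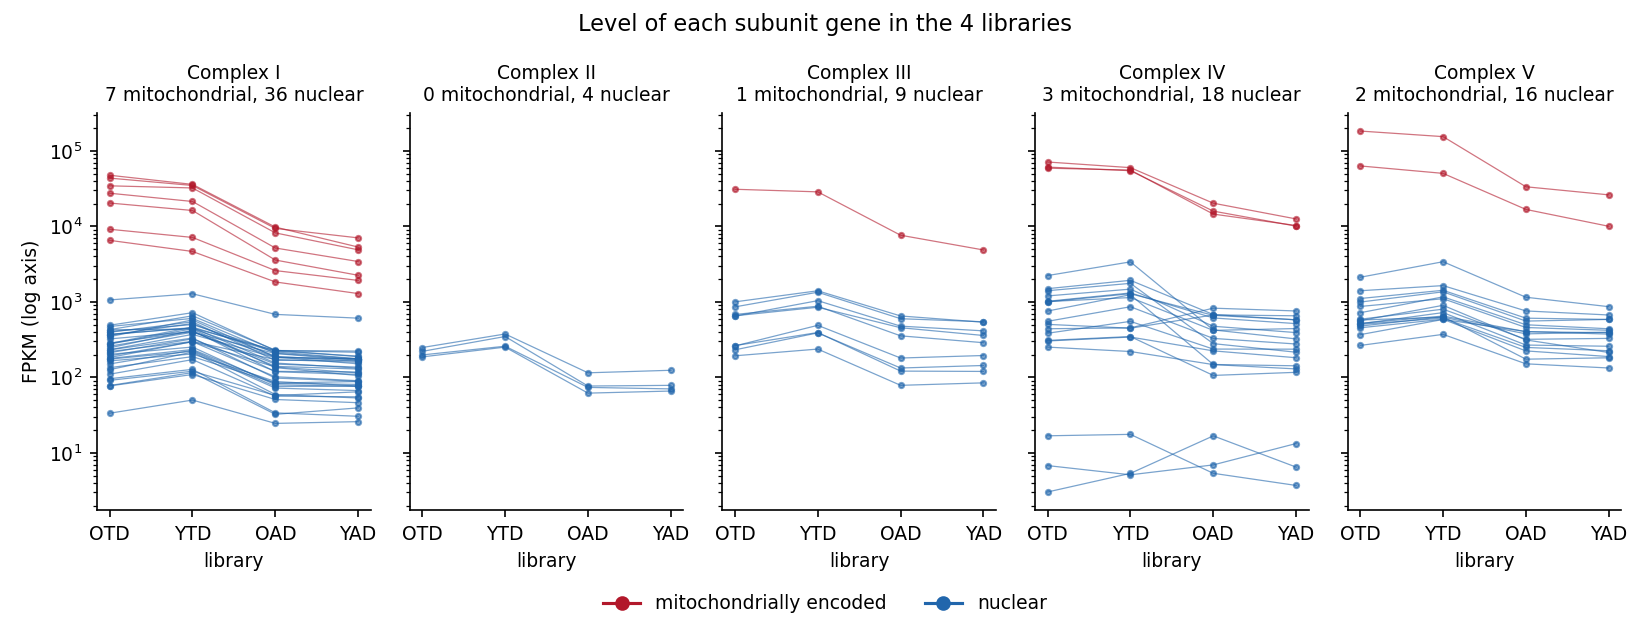
FPKM (vertical log axis) of each subunit gene that passed the filter in the 4 libraries (horizontal axis: OTD old telogen, YTD young telogen, OAD old anagen, YAD young anagen), with 1 panel per complex, red lines for mitochondrially encoded and blue lines for nuclear genes. Every red line declines from OTD to YAD and stays above all blue lines of its panel, while most blue lines peak in YTD.

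All 13 mitochondrially encoded genes had the same order of libraries, OTD above YTD above OAD above YAD, also after rescaling by the median of ratios or to TPM (FPKM rescaled to a common sum). Their median level was 43667 FPKM in OTD and 34897 in YTD, against 9403 in OAD and 5328 in YAD. Within a library the genes spanned a wide range, from 6540 FPKM (mt-Nd5) to 183517 (mt-Atp8) in OTD and from 1289 to 26201 for the same genes in YAD, which is a ratio of 28.1 in OTD and 33.2 in YTD, against 18.2 in OAD and 20.3 in YAD. mt-Atp8, a small subunit of complex V, ranked first of all 22913 genes in each library, and mt-Co2, a catalytic subunit of complex IV, ranked second in each.

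The complex IV genes mt-Co1, mt-Co2 and mt-Co3, which form its catalytic core, had like levels. mt-Co1 had 59139 FPKM in OTD and 55800 in YTD, against 14568 in OAD and 10281 in YAD. mt-Co2 had 71372, 60100, 20322 and 12565 in the same libraries. mt-Co3 had 61105, 54763, 15958 and 10086. For mt-Co1 the young telogen library lay 5.43 times above the young anagen library and the old one 4.06 times, and for all 3 genes the ages differed by less than the phases. mt-Cytb, the only mitochondrially encoded subunit of complex III, had 31070, 28716, 7644 and 4876 FPKM in OTD, YTD, OAD and YAD, and followed the same order.

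The 7 complex I genes were spread more widely, between 6540 and 47663 FPKM in OTD. mt-Nd3 was the highest of them in OTD, YTD and OAD, with 47663 FPKM in OTD and 36054 in YTD, against 9802 in OAD and 5328 in YAD. mt-Nd1, at the ubiquinone end of the complex, had 34512, 32345, 8212 and 4896, and mt-Nd2, a proton-pumping subunit, had 20416, 16268, 3587 and 2253. mt-Nd5 was the lowest of all 13, with 6540, 4661, 1838 and 1289. It also had the smallest difference between anagen and telogen in young mice, with a log2 change of -1.85 against -2.85 for mt-Nd2. mt-Nd6, the only protein gene on the other strand of the molecule, had 9173, 7150, 2600 and 1926 FPKM, a ratio to its neighbour mt-Nd5 of 1.40 in OTD and 1.53 in YTD, against 1.41 in OAD and 1.49 in YAD.

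**Figure D2:**
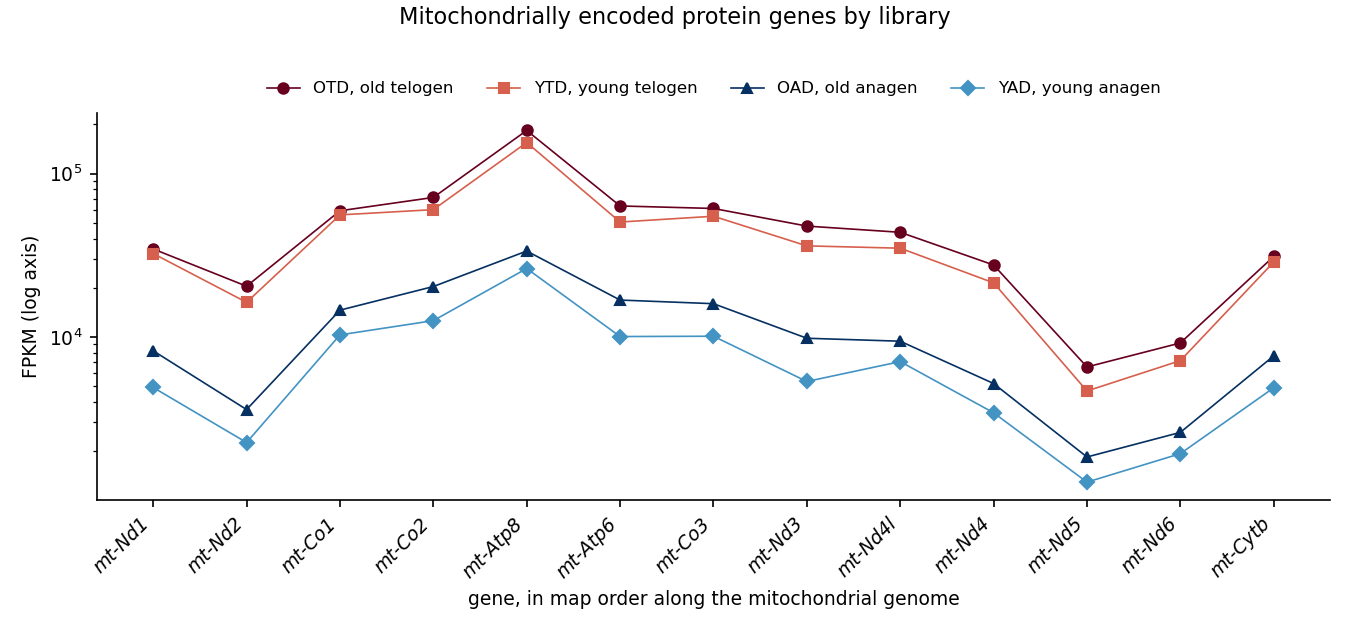
FPKM (vertical log axis) of the 13 mitochondrially encoded protein genes in map order (horizontal axis), with 1 line per library. The 4 lines run nearly parallel and do not cross: mt-Atp8 is the highest gene and mt-Nd5 the lowest in each library, with 183517 and 6540 FPKM in OTD.

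Several of these genes overlap, so their separate levels are uncertain. On the mitochondrial chromosome of GRCm38, mt-Atp8 lies at 7766-7969 and mt-Atp6 at 7927-8607, sharing 43 bases, and mt-Nd4l at 9877-10173 shares 7 bases with mt-Nd4 at 10167-11544. mt-Nd5 (11742-13565) and mt-Nd6 (13552-14070) overlap on opposite strands, and whether the counting used strand is not given in the sources used here. mt-Atp6 also shares its last base, 8607, with mt-Co3. The stretches around the 2 longer same-strand overlaps are shown because each pair of genes is read from a shared transcript, with 12 bases on either side of the overlap and the start codon of the downstream gene in capitals (GENCODE vM21 transcripts, forward strand):
mt-Atp8/mt-Atp6, chrM:7915-7981: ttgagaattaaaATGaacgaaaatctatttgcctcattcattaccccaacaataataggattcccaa
mt-Nd4l/mt-Nd4, chrM:10155-10185: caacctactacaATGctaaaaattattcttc
Despite the shared transcript, mt-Atp8 and mt-Atp6 were listed at 183517 and 63298 FPKM in OTD and 154835 and 50455 in YTD, against 33524 and 16796 in OAD and 26201 and 10042 in YAD. mt-Nd4l and mt-Nd4 were listed at 43667 and 27541 in OTD and at 7053 and 3428 in YAD. The shorter gene of each pair, 204 bases for mt-Atp8 and 297 for mt-Nd4l, had the higher FPKM in all 4 libraries, and the part of fragment length in this was not tested. Fragments from nuclear copies of mitochondrial DNA cannot be told apart from mitochondrial ones in these values.

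Changes between libraries are given as differences of log2(FPKM + 1), with a difference of at least 1 taken as a change. The 4 comparisons share libraries with each other, so their values are set side by side and are not independent. With age the mitochondrial and the nuclear genes differed in opposite directions in telogen. The median log2 change from YTD to OTD was 0.32 for the mitochondrial genes, which were higher in OTD in 13 of 13, against -0.46 for the nuclear members, which were lower in 89 of 93. The nuclear median was -0.24, with 80 of 93 lower, on TPM after leaving out the mitochondrial genes. Over all genes the median was -0.06, with 43.3% of genes higher and 55.9% lower in OTD. None of the 106 members that passed the filter reached a log2 change of 1, which 4.37% of all genes did in either direction. The largest nuclear differences were -0.91 for Cyc1, -0.85 for Ndufaf4 and -0.77 for Ndufc1, and 0.35 for Cox6b2, 0.19 for Cox7a2l and 0.17 for Cox8a on the other side.

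In anagen the mitochondrial genes were again all higher in the old library, with a median log2 change from YAD to OAD of 0.65. The nuclear members had a median of 0.12, with 68 of 93 higher in OAD beside 50.0% of all genes, whose median was 0.00. On TPM the count turned over, with 23 of 93 higher and 70 lower, and with the mitochondrial genes left out of the TPM sum 35 were higher. The nuclear median turned negative under each of 3 TPM scalings, down to -0.11, although it stayed 0.09 to 0.12 above the median of all genes under every alternative tried. Cox4i2 was the only member past a log2 change of 1, beside 1.46% of all genes. Atp5g1 (0.55) and Ndufa4l2 (0.44) followed, and Cox6b2 (-0.85), Ndufs1 (-0.28) and Ndufaf4 (-0.18) had the largest falls in value. On the deposited scale 66 of the nuclear members were lower in OTD than YTD and higher in OAD than YAD, 23 were lower in both old libraries, 2 were higher in both, and 2 were higher in OTD and lower in OAD. On TPM the first 2 counts changed places, with 23 lower in OTD and higher in OAD and 66 lower in both old libraries. How many of all genes fall into each of these classes was not counted, so the counts stand without a background. On the deposited scale 55.9% of all genes were lower in OTD than YTD, and 50.0% were higher in OAD than YAD.

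Between the hair cycle phases the differences were larger. In young mice all 13 mitochondrial genes and 77 of the 93 nuclear members were lower by at least 1 in YAD than in YTD, which held for 20.7% of all genes. In old mice 13 of 13 and 35 of 93 were lower by at least 1 in OAD than in OTD, beside 19.4% of all genes. The median log2 change was -2.44 for the mitochondrial and -1.44 for the nuclear genes in young mice, and -2.02 and -0.88 in old mice, while that of all genes was 0.01 and 0.05. The only nuclear member higher by at least 1 was Cox6b2 in young mice and Cox4i2 in old mice, beside 19.9% and 20.1% of all genes. The sizes, and for part of the members the directions, rest on scaling: on TPM the median of all genes moved to 0.72 and 0.56, the nuclear median to -0.62 and -0.27, and the numbers of nuclear members lower by at least 1 to 17 and 4. The nuclear members higher in OAD than OTD by any amount went from 5 to 26 on TPM, Cyc1 (0.09), Uqcr11 (0.10), Ndufaf4 (0.34) and Ndufaf8 (0.10) among them.

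The mitochondrial minus the nuclear median needs no common scale, since both sets come from the same libraries. It was 0.78 for age in telogen and 0.53 for age in anagen, and -1.004 and -1.14 for anagen against telogen in young and old mice. Over all alternatives it ranged from 0.77 to 0.78, from 0.53 to 0.53, from -1.01 to -0.96 and from -1.15 to -1.12. The sets overlapped little: in OTD against YTD 89 of the 93 nuclear members lay below every mitochondrial gene, in OAD against YAD 87 did, and in OAD against OTD 90 lay above every one. In YAD against YTD they overlapped more, with 76 above every mitochondrial gene and 3 below every one.

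**Figure D3:**
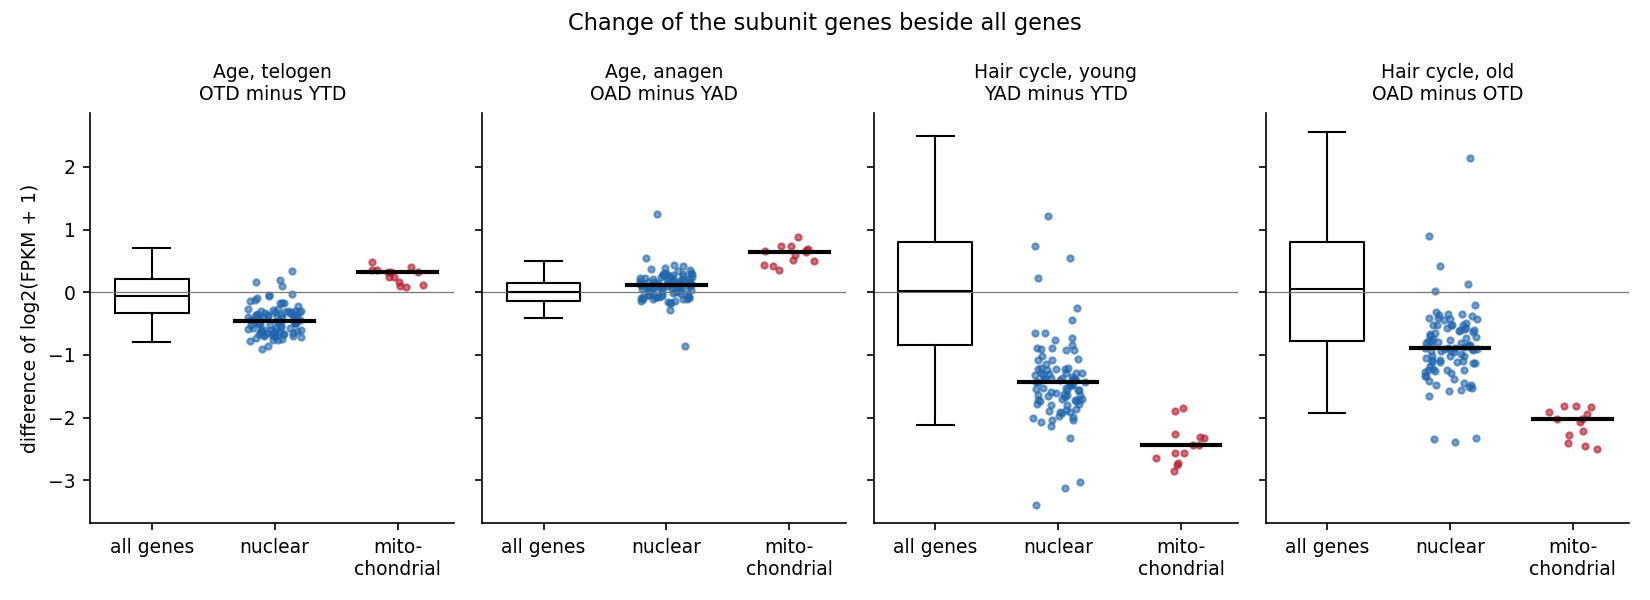
Difference of log2(FPKM + 1) (vertical axis) in each of the 4 comparisons (panels), as a box for all 14203 genes (quartiles and median, whiskers from the 5th to the 95th percentile) and as 1 point per gene for nuclear (blue) and mitochondrially encoded members (red), with bars at the medians. The mitochondrial points lie above the nuclear bulk in both age comparisons, with medians of 0.32 and 0.65, and below it in both hair cycle comparisons, with medians of -2.44 and -2.02. The nuclear median for age in anagen, 0.12, turns negative on TPM.

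By complex, values and counts are on the deposited scale. Complex I, which oxidises NADH, has 36 nuclear members here. All 36 were lower in OTD than YTD, beside 55.9% of all genes. All 36 were also lower in anagen than telogen at both ages, beside 49.4% and 48.3% of all genes in young and old mice. Their median level was 232 FPKM in OTD and 352 in YTD, against 136 in OAD and 116 in YAD. The number lower by at least 1 was 33 in young mice and 15 in old mice, beside 20.7% and 19.4% of all genes. Ndufa3, a small accessory subunit, was the highest of them with 1062 FPKM in OTD and 1282 in YTD, against 683 in OAD and 609 in YAD. Ndufb9 had 491, 720, 226 and 215. Ndufs1, the largest of the nuclear core subunits, which carry the flavin and the iron-sulfur clusters, had 78.0, 116, 32.4 and 39.4 FPKM. It was among the 6 of 36 complex I members lower in OAD than YAD, beside 49.8% of all genes. The ratio of the median mitochondrial to the median nuclear complex I gene was 119 in OTD and 60.9 in YTD, against 38.1 in OAD and 29.5 in YAD.

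Complex II, the succinate dehydrogenase shared with the citric acid cycle, has no mitochondrial subunit and was the complex whose nuclear genes had the lowest median in young anagen relative to young telogen, at -1.89. Sdha, the flavoprotein, had 198 FPKM in OTD and 259 in YTD, against 73.7 in OAD and 70.4 in YAD. Sdhb, which carries the iron-sulfur clusters, had 249, 376, 115 and 124. Sdhc and Sdhd, the membrane anchors, had 221, 348, 76.8 and 78.4, and 187, 252, 61.9 and 65.9. All 4 were highest in YTD and lower by at least 1 in anagen at both ages, beside 20.7% and 19.4% of all genes. Between OAD and YAD they differed little, with log2 changes from -0.11 (Sdhb) to 0.06 (Sdha).

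Complex III passes electrons from ubiquinol to cytochrome c. All 9 of its nuclear members were lower by at least 1 in YAD than in YTD, beside 20.7% of all genes. In OAD against OTD 2 of the 9 were, near the 19.4% of all genes. Uqcr10 and Uqcr11, small accessory subunits, were the highest nuclear genes of complex III. They had 1001 and 859 FPKM in OTD and 1404 and 1344 in YTD, against 651 and 599 in OAD and 538 and 545 in YAD. Cyc1, the cytochrome c1 that hands on the electron, had 261, 489, 181 and 194.9 FPKM. As a difference of log2(FPKM + 1), it showed the largest difference with age in telogen of all nuclear members. Its value in YTD was 1.88 times that in OTD, while the lower gene Ndufaf4 had a ratio of 1.90. Cycs, the soluble cytochrome c itself, had 112 FPKM in OTD and 176 in YTD, against 37.2 in OAD and 34.2 in YAD, and was lower by at least 1 in anagen at both ages.

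Complex V, the ATP synthase, had its 16 nuclear subunits lower in OTD than YTD throughout, beside 55.9% of all genes. Of the 16, 13 were lower by at least 1 in YAD than YTD, beside 20.7% of all genes. In OAD against OTD 3 of the 16 were, near the 19.4% of all genes. Atp5e, the epsilon subunit of the rotor stalk, was the highest with 2120 FPKM in OTD and 3409 in YTD, against 1153 in OAD and 865 in YAD. Atp5mpl, a small subunit of its membrane part, followed with 1406, 1645, 759 and 671. Atp5b, the catalytic beta subunit, had 995, 1360, 557 and 586. Atp5g1, 1 of the 3 genes for the same ring subunit c, had 564, 901, 313 and 214 FPKM, and its paralogues differed from it: Atp5g2 had 576, 627, 377 and 398, and Atp5g3 had 719, 1167, 498 and 441. These 3 genes encode the same mature protein, and how reads matching several of them were counted is not given in the sources used here. Atp5d was the only subunit of complex V that was higher in OAD than in OTD, with 405 and 368 FPKM, a log2 change of 0.14, on the deposited scale.

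Assembly factors were expressed far below the subunits they help to put together. The 9 genes (8 Ndufaf genes of complex I and Atp5s) had a median of 13.3 FPKM in OTD and 17.0 in YTD, against 6.93 in OAD and 7.95 in YAD. Ndufaf8 was the highest with 40.8, 55.0, 28.6 and 30.2, followed by Ndufaf1 with 19.1, 26.8, 10.8 and 10.4. In telogen 8 of 9 were lower in OTD, beside 55.9% of all genes. In anagen 6 of 9 were lower in OAD, against 19 of the 84 subunits and 49.8% of all genes. On TPM 8 of 9 assembly factors and 62 of 84 subunits were lower in OAD, where the median of all genes was -0.20. The median log2 change of the assembly factors between YTD and YAD was -1.21, with 5 of 9 lower by at least 1, beside 20.7% of all genes.

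Complex IV, the cytochrome c oxidase, held the members that departed most from the rest. Of its 20 nuclear genes 18 passed the filter. On the deposited scale 14 of the 18 were lower in anagen than in telogen at each age, beside 49.4% and 48.3% of all genes in young and old mice. The widely expressed Cox6a1 and Cox8a, described below, were among those that were higher. Cox6c had 1497 FPKM in OTD and 1932 in YTD, against 681 in OAD and 578 in YAD, and Cox4i1, which sits on the catalytic core, had 1019, 1314, 613 and 516. For 3 subunits the genome holds a pair of genes, which exist as a form of striated muscle and, for some, brown fat (Cox6a2, Cox7a1 and Cox8b) and a form found in most tissues (Cox6a1, Cox7a2 and Cox8a). The muscle form was the higher of each pair in both telogen libraries and the lower in both anagen libraries.

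Cox8b (ENSMUSG00000025488, chromosome 7, 140898943-140900446) was the highest nuclear complex IV gene in telogen, with 2234 FPKM in OTD and 3392 in YTD, against 425 in OAD and 323 in YAD. Its counterpart Cox8a (ENSMUSG00000035885, chromosome 19, 7215158-7217616) had 504, 448, 672 and 655. Cox8b thus made up 81.6% of the sum of both in OTD and 88.3% in YTD, against 38.7% in OAD and 33.1% in YAD. From YTD to YAD the 2 genes moved apart, with a log2 change of -3.39 for Cox8b, the largest fall of any nuclear member, and of 0.55 for Cox8a.

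Cox6a2 (ENSMUSG00000030785, chromosome 7) had 1407 FPKM in OTD and 1761 in YTD, against 280 in OAD and 216 in YAD, and Cox6a1 (ENSMUSG00000041697, chromosome 5) had 441, 453, 826 and 759. The share of Cox6a2 was 76.1%, 79.5%, 25.3% and 22.1%. Cox7a1 had 757, 1245, 148 and 142 FPKM and Cox7a2 304, 342, 225 and 182, for a share of Cox7a1 of 71.4%, 78.4%, 39.8% and 43.9%. These shares rest on 2 genes of the same library and so not on scaling. Cox6a1 and Cox8a were higher in anagen at both ages under all 8 settings tried, while the difference of Cox7a2 between OTD and OAD changed from -0.43 to 0.18 on TPM.

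The longest run of identical bases between the annotated transcripts of these pairs was 12 bases for Cox6a2 and Cox6a1, 12 for Cox7a1 and Cox7a2 and 10 for Cox8b and Cox8a. With age the muscle forms were lower in OTD than YTD, by -0.32 for Cox6a2, -0.72 for Cox7a1 and -0.60 for Cox8b, and higher in OAD than YAD, by 0.38, 0.06 and 0.39. The value of Cox7a1 in anagen turned negative on TPM.

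**Figure D4:**
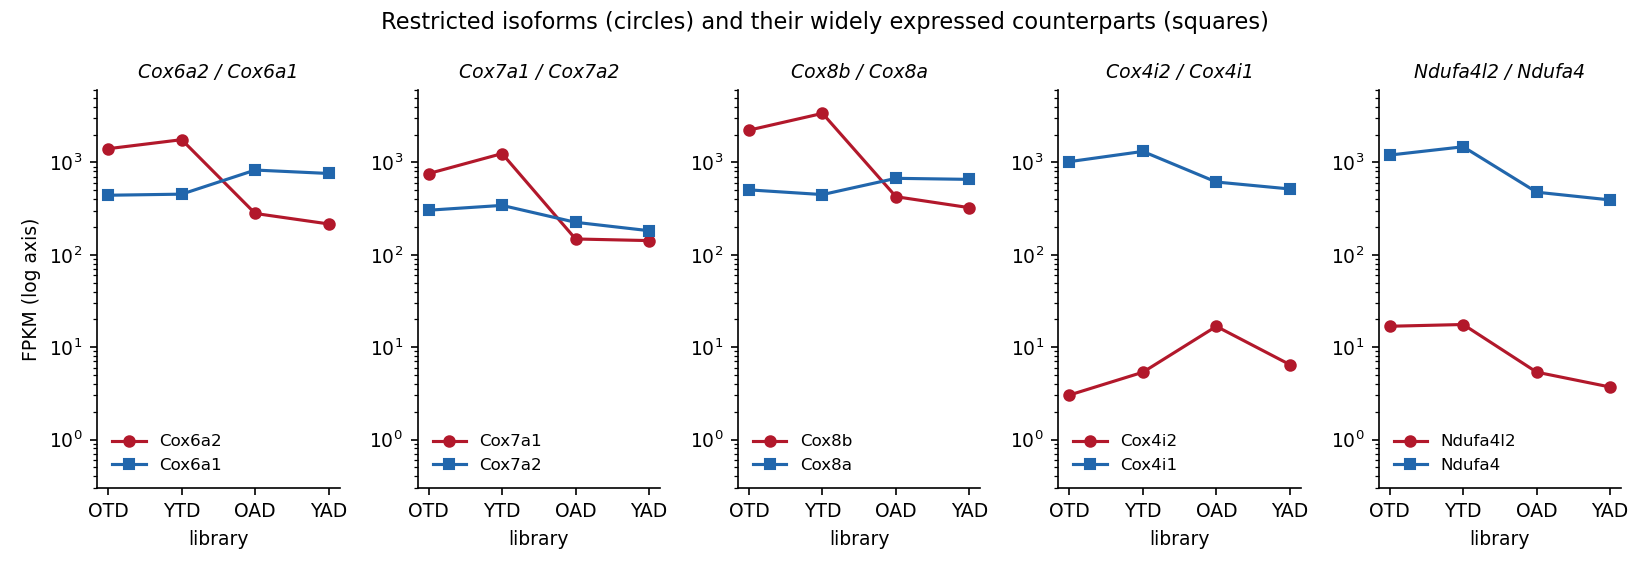
FPKM (vertical log axis) of 5 pairs of alternative complex IV subunits in the 4 libraries (horizontal axis), with the tissue-restricted or hypoxia-linked form as red circles and the widely expressed form as blue squares. In the 3 pairs on the left the lines cross between the telogen and the anagen libraries, for example with Cox8b at 3392 and 323 FPKM in YTD and YAD. Cox4i2 and Ndufa4l2 stay below their counterparts throughout.

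Skeletal muscle markers moved with the muscle forms and with the nuclear members as a whole. Their median log2 change was -0.70 for age in telogen and 0.28 for age in anagen. For anagen against telogen it was -3.06 and -1.99 in young and old mice. There 18 and 15 of 19 were lower by at least 1, beside 20.7% and 19.4% of all genes. Ckm, the muscle creatine kinase, had 7920 FPKM in OTD and 12413 in YTD, against 1988 in OAD and 1400 in YAD, and Acta1, the skeletal actin, had 17991, 27442, 4106 and 2919. The level of the markers ran in the order YTD, OTD, OAD, YAD, which was also the order of 63 of the 93 nuclear members but of no mitochondrial gene. On TPM it was the order of 16 of the 93, while 40 had YTD, OTD, YAD, OAD. Myh7, the slow myosin, stayed under 1 FPKM in every library. Without the 3 muscle forms, the medians of the nuclear members were -0.45, 0.12, -1.43 and -0.87 in these comparisons, close to those with them. The part of muscle RNA in the values of the other members was not tested.

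Other cell types moved too. Adipocyte markers had medians of 0.08 and 0.31 for age in telogen and anagen. For anagen against telogen in young and old mice they had -1.71 and -1.43. Of the 15, 14 and 12 were lower by at least 1, beside 20.7% and 19.4% of all genes. Endothelial markers had medians of 0.58, 0.23, -1.54 and -1.85 in the same 4 comparisons, and macrophage markers 0.30, -0.24, -1.47 and -2.18. Fibroblast markers had 0.37, -0.63, -1.06 and -2.04. Keratinocyte markers went the other way in anagen, with -0.36, 0.26, 3.18 and 4.23. All 10 of them were higher in anagen at both ages, beside 50.5% and 51.6% of all genes. The sums of adipocyte and endothelial markers ran in the order OTD, YTD, OAD, YAD, that of all 13 mitochondrial genes. Among nuclear members 1 of 93 had this order, and the macrophage and fibroblast sums had YAD above OAD. Of the brown fat markers, Ucp1, the uncoupling protein that defines the type, was listed at 0 in YTD and YAD and at 0.122 and 0.0316 FPKM in OTD and OAD. The sum of all 7 brown fat markers was 79.2 FPKM in OTD and 96.6 in YTD, against 61.2 in OAD and 81.2 in YAD. The part of these cell types in the members' values was not tested.

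The subunit forms linked to low oxygen went separate ways. Cox4i2 (ENSMUSG00000009876, chromosome 2, 152754173-152765037), the lung and hypoxia form of Cox4, had 3.03 FPKM in OTD and 5.35 in YTD, against 16.8 in OAD and 6.48 in YAD, which rest on roughly 34, 54, 207 and 73 fragments. OAD stood above the other libraries, with a log2 change of 1.25 against YAD, between 1.06 and 1.37 over the settings tried, and of 2.14 against OTD. Cox4i2 was 2.67% of the sum of Cox4i1 and Cox4i2 in OAD and 0.297% in OTD. Ndufa4l2, which replaces Ndufa4 under hypoxia, had 16.8, 17.6, 5.36 and 3.70 FPKM beside 1200, 1476, 476 and 392 for Ndufa4, and was below 1.4% of that pair in all libraries. Of the testis forms, Cox6b2 had 6.78, 5.12, 6.93 and 13.3 FPKM, highest in YAD, on roughly 46, 31, 52 and 90 fragments.

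The promoters of 4 members are shown, because Cox8a and Cox6a1 went up in value in anagen where Cox8b went down, and Cycs is a well studied target of NRF1, a transcription factor of mitochondrial genes. Each is given 5′ to 3′ on the strand of the gene, from 250 bases before to 30 bases after the RefSeq start site (GRCm38.p6), with matches to 6 short motifs in capitals, which are GCGCATGC (NRF1), CCGGAAG (ETS factors such as GABP), AAGGTCA (oestrogen-related receptors), AAGATGGC (YY1), GGGCGG (Sp1) and TATAAA, each on either strand:
Cox6a1, chr5:115348929-115349208, minus strand: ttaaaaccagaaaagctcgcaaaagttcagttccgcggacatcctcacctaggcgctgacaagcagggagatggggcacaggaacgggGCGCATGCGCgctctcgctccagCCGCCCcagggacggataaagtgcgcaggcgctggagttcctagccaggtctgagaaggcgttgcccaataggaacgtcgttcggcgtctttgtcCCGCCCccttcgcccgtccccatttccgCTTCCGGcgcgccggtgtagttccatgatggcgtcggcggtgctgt
Cox8a, chr19:7217587-7217866, minus strand: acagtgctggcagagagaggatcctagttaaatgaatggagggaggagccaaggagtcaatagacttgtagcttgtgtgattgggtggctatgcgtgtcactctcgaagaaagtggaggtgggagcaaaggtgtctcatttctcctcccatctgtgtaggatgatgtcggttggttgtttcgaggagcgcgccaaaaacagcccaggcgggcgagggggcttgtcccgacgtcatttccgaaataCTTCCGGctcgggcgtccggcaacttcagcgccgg
Cox8b, chr7:140900417-140900696, minus strand: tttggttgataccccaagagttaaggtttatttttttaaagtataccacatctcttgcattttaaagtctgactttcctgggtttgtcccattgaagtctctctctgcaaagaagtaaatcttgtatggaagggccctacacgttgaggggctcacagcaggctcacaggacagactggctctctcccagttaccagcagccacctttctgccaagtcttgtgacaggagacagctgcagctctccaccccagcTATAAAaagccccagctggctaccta
Cycs, chr6:50566540-50566819, minus strand: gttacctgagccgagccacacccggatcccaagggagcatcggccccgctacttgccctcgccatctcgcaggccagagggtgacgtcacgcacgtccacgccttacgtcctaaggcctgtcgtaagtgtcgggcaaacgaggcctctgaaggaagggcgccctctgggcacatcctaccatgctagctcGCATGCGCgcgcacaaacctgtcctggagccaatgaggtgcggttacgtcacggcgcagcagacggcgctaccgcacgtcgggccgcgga
The window of Cox6a1 holds 2 overlapping matches to the NRF1 letters on opposite strands, 2 to the Sp1 letters and 1 to the ETS letters, that of Cox8a 1 ETS match, and that of Cycs 1 NRF1 match. The window of Cox8b, 47.5% G and C against 62.5% for Cox6a1, holds TATAAA alone of these letters, 4 bases after the listed start site.

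Over the windows of 300 bases, 75 of the 95 nuclear members were found in the promoter table with 80 windows, of all 32851 windows. The NRF1 letters stood in 16.2% of the members' windows, in 2.71% of all windows and in 4.72% of those of genes that passed the filter. The ETS letters stood in 22.5%, 8.86% and 16.1%, the YY1 letters in 12.5%, 2.75% and 4.05%, and the receptor letters in 10%, 4.72% and 3.28%. The Sp1 letters were in 43.8% of the members' windows and in 60.3% of those of genes that passed the filter, and TATAAA in 10% and 8.20%. The members with and without a match had like median changes: for NRF1, -1.37 in 13 members and -1.48 in 61 from YTD to YAD, and for the ETS letters -1.28 in 18 and -1.53 in 56. A match is a run of letters and not a measured binding site.

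The genes that surround oxidative phosphorylation were compared in the same way. All 16 genes of the citric acid cycle and pyruvate dehydrogenase had lower values in OTD than in YTD (median -0.61), beside 55.9% of all genes. In anagen 14 and 10 of 16 were lower by at least 1 in young and old mice, beside 20.7% and 19.4% of all genes. Cs, the citrate synthase, had 168 FPKM in OTD and 260 in YTD, against 130 in OAD and 134 in YAD. The mitochondrial ribosome, which translates only the mitochondrially encoded subunits, had a median of -0.39 for age in telogen and 0.01 in anagen, and of -0.44 and -0.14 for anagen against telogen, with 13 and 2 of 76 lower by at least 1, fewer than the 20.7% and 19.4% of all genes.

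The 7 mitochondrial transporters listed (carriers and porins) had medians of -1.26 and -0.76 for anagen against telogen in young and old mice. Of the 7, 6 and 3 were lower by at least 1, beside 20.7% and 19.4% of all genes. Within this list a pair of ADP/ATP carriers showed an exchange like that of complex IV. Slc25a4, the ADP/ATP carrier of muscle and heart, had 1392 FPKM in OTD and 1996 in YTD, against 313 in OAD and 257 in YAD. Slc25a5, its form in dividing and most other cells, had 133, 121, 445 and 445. It was the only 1 of the 7 higher in anagen, by at least 1 at both ages, beside 19.9% and 20.1% of all genes. Ucp2, an uncoupling protein of many tissues, had 67.2, 92.2, 203 and 178 FPKM, and Ucp3, that of muscle and brown fat, had 40.9, 26.7, 5.53 and 5.87. Usmg5 and Atpif1, a subunit and an inhibitor of the ATP synthase that the symbols of the rule leave out, had 976, 1290, 460 and 345, and 106, 84.5, 270 and 286.

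Of 22 genes for copying and transcribing mitochondrial DNA and for handling its RNA, 15 had lower values in OTD than in YTD and 7 had higher ones, none by 1 or more, and 3 of 22 in young and 2 in old mice were lower by at least 1 in anagen, again under the shares of all genes. Of all genes 55.9% were lower in OTD. In anagen against telogen 11 of the 22 were higher and 11 lower at each age, with a median of -0.01 in both. Of all genes 50.5% and 51.6% were higher in young and old mice. Tfam, which packs mitochondrial DNA and starts its transcription, had 23.9 FPKM in OTD and 21.2 in YTD, against 13.2 in OAD and 16.6 in YAD. Polrmt, the RNA polymerase, had 7.69, 11.4, 16.2 and 18.3 in the same libraries. Of 11 regulators of nuclear mitochondrial genes, Ppargc1a, the coactivator of mitochondrial biogenesis, had 4.74, 5.90, 1.19 and 1.94 FPKM, Nrf1 had 8.35, 6.79, 13.0 and 13.5, and Esrra had 33.1, 58.0, 30.6 and 29.2. The median of the 11 genes was -0.06 for age in telogen and -0.22 in anagen.

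**Figure D5:**
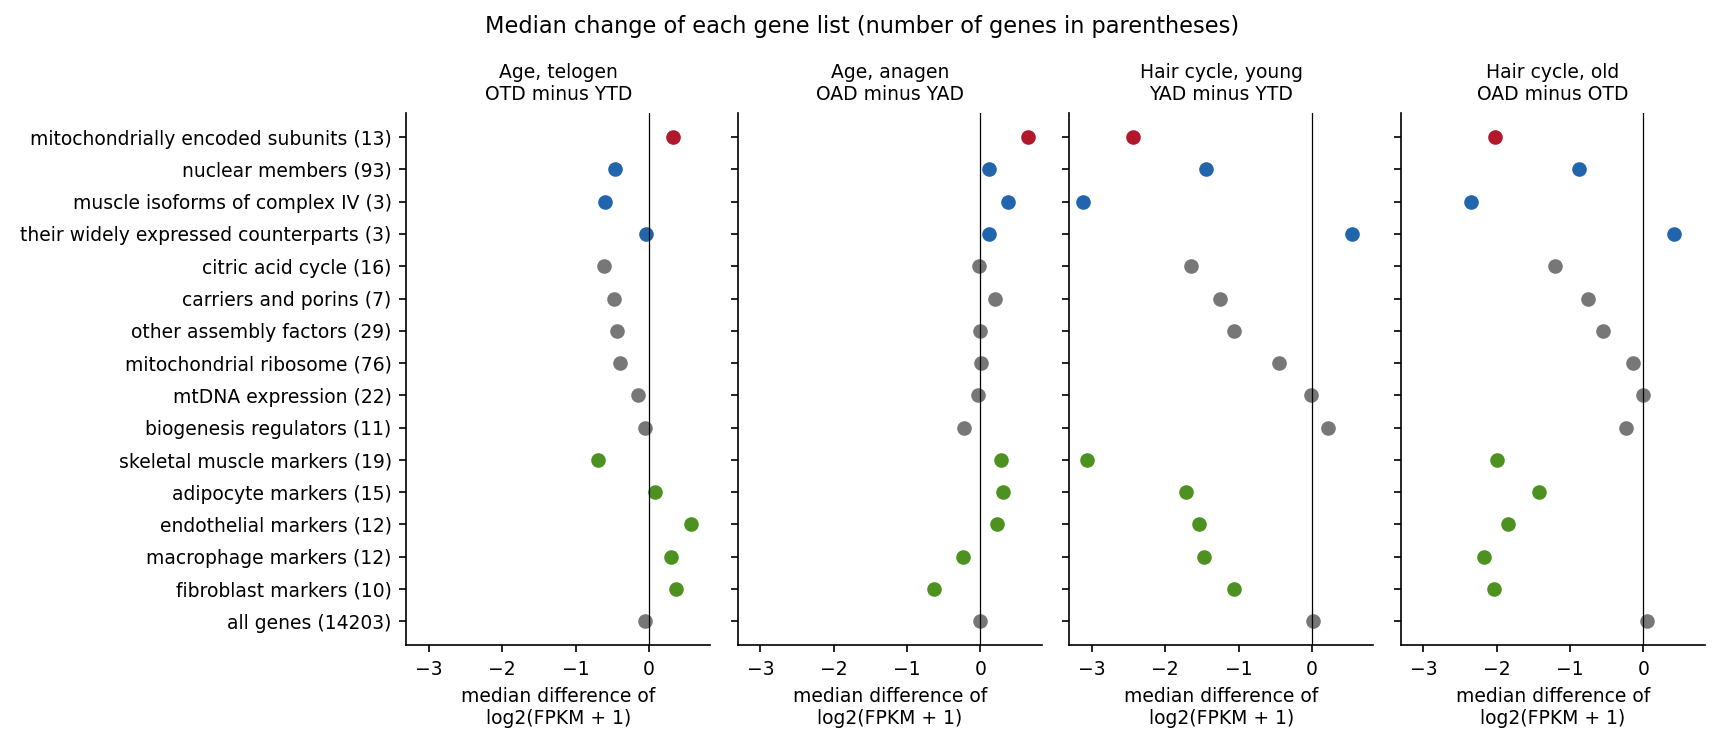
Median difference of log2(FPKM + 1) (horizontal axis) of each gene list (rows, with the number of genes that passed the filter) in the 4 comparisons (panels): red for mitochondrially encoded genes, blue for nuclear members and the isoform lists, grey for other mitochondrial lists and all genes, green for cell type markers. In telogen the mitochondrially encoded genes (0.32) lie on the other side of 0 from the nuclear members (-0.46) and the citric acid cycle (-0.61). In anagen against telogen in young mice the mitochondrial genes, the muscle isoforms and the muscle markers lie farthest to the left. In old mice the muscle isoforms (-2.34) lie farthest left, followed by macrophage (-2.18) and fibroblast markers (-2.04), mitochondrial genes (-2.02) and muscle markers (-1.99). The small positive nuclear median in anagen turns negative on TPM.

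The level of a nuclear subunit went with the length listed for its gene. For all 95 nuclear members that length was the coding length of an annotated transcript, and the exons of the gene covered a median of 2.99 times as many bases, whereas for the 13 mitochondrial genes it equalled the annotated exon. Across the 84 nuclear subunits that passed the filter Spearman's rho of length and FPKM was -0.48 in OTD and -0.41 in YTD, against -0.46 in OAD and -0.43 in YAD, given as a description across genes of 1 library each. In YTD the 21 subunits under 300 bp had a median of 1245 FPKM and the 12 of 900 bp or more had 324. Which part of a gene the fragments were counted over is not given in the sources used here, so the size of the gap in level between the mitochondrial and the nuclear genes is uncertain.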

How the data were processed

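RNA sequencing measured dWAT in 4 libraries, 1 per group, and groups were taken from the titles. The deposited values, made by the authors, are FPKM of 22913 genes, with the length and GRCm38 coordinates of every gene, and the submitters' processing notes name bcl2fastq and TopHat2. The tool that made the FPKM and the annotation are not given in the sources used here. The deposited values are not scaled to a common total: the sum of FPKM times length differed by library, so that a further scaling by the authors' tool may be in them, while median-of-ratios factors over 11181 genes were 0.971 to 1.01.

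Symbols were matched by Ensembl identifier (21750 genes). Changes are differences of log2(FPKM + 1), which understate those of low genes, over the 14203 genes with at least 1 FPKM in at least 1 library, and at least 1 in size counted as changed. With 1 library per group no test was made, and a model of age and phase was not fitted. Read counts were not used here. The lowest values in features of 2000 to 4000 bp gathered at FPKM times kilobases of 0.0421 to 0.0516, taken roughly as 1 fragment. Fragment numbers are rough and high for short genes, and cover counting error only.

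The members and gene lists were chosen with earlier results of these data known. The genes named are the mitochondrially encoded genes, Sdha to Sdhd, Cyc1 and Cycs, the isoform pairs, the 2 highest genes per complex, the 3 largest rises and falls per comparison among genes reaching 5 FPKM, and list members, and Atp5b, the other subunit c genes, Atp5d, Usmg5 and Atpif1 were added after their values were seen. Promoters are from RefSeq and transcripts from GENCODE vM21. The steps were tested on simulated data and run in Python 3.11.15 with numpy 2.4.6, pandas 2.3.3, scipy 1.17.1 and matplotlib 3.10.9. Alternatives were other pseudocounts, no filter, TPM, median of ratios, TPM without mitochondrial or muscle genes, and smaller member sets.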

Additional observations from a re-analysis of the deposited data

Results flagged for a closer look

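The nuclear members differed with age in opposite directions in the phases, with a median log2 change of -0.46 in telogen and 0.12 in anagen. With 1 library per group the difference between the phases was not tested, the anagen median turned negative on TPM, and the telogen median was -0.24 on TPM after leaving out the mitochondrial genes. Skeletal muscle markers had medians of -0.70 and 0.28 in the same comparisons, and their part was not tested.

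For 8 nuclear members the age change was at least 0.3 in size in both phases and opposite in sign, in each case not tested. On TPM this held for 3 of them, Atp5g1, Cox4i2 and Cox6b2, and with median-of-ratios scaling for 11 nuclear members. How many of all genes meet the same rule was not counted, so these numbers stand without a background. The log2 changes in telogen and anagen were -0.36 and 0.30 for Uqcrb, -0.38 and 0.34 for Uqcrh, which both belong to complex III, -0.68 and 0.41 for Atp5e and -0.67 and 0.55 for Atp5g1. Among the complex IV forms they were -0.32 and 0.38 for Cox6a2, -0.60 and 0.39 for Cox8b and -0.66 and 1.25 for Cox4i2. Cox6b2, the testis form, was the only one with the reverse order, at 0.35 and -0.85.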

How the results depend on the processing

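Of 260 recomputed list values 234 stayed within the counting error of a member of median depth (counts of genes, within 1.5 times; shares, within their interval), 23 moved further and 3 reversed. Of the values of 44 named genes 766 stayed within counting error and 466 moved further, 45 of these with a change of sign from a value under 1 in size. The difference between mitochondrial and nuclear medians kept its size under all alternatives, and 13 of 13 mitochondrial genes kept their directions. The nuclear median for age in anagen reversed, to -0.11 on TPM, -0.047 on TPM after leaving out the mitochondrial genes and -0.041 after leaving out muscle markers too, and the nuclear members lower by at least 1 in OAD went from 0 to 1 in each. On TPM the nuclear median for anagen against telogen was -0.62 in young and -0.27 in old mice, or -1.34 and -0.83 relative to all genes, with 17 and 4 members lower and 3 and 3 higher by at least 1. Without the mitochondrial genes in the TPM sum, the nuclear medians were -0.24 for age in telogen and -1.24 and -1.05 for the hair cycle in young and old mice. Without the muscle markers as well they were -0.32 for age in telogen and -1.22 for the hair cycle in old mice, with 63 members lower by at least 1. By its construction TPM moves all genes of a comparison by nearly the same amount, set by the library sums, which were 1248934, 1245383, 814002 and 693083 FPKM in OTD, YTD, OAD and YAD. Why the sums differ was not tested. The mitochondrial share was 52.7% in OTD and 44.7% in YTD with no filter, and 43.2%, 34.2%, 14.6% and 10.8% as a share of fragments in OTD, YTD, OAD and YAD. Of the mitochondrial genes only the 13 protein genes are listed, so leaving out rRNA and tRNA genes was not run. No paired analysis was possible with 1 library per group, and a model with age and phase as terms was not fitted. Depth limits Cox4i2, Cox6b2 and Ndufa4l2, which rest on the fewest fragments.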
